A study of Homo sapiens with 24 samples.

Results

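The S phase and DNA replication genes are 43 genes, chosen by symbol as licensing, replication and E2F target genes. Their products mainly license and fire origins, copy DNA, supply nucleotides or drive the transcription of that machinery. All 43 had a probe on the array, 63 probes among 47231, and 58 of the 63 were kept as above background. The kept probes stood for 42 of the genes, of 11006 genes with a kept probe in all. E2F8, a repressor of the E2F family, was the gene left out: its probe lay above background on 3 of 24 arrays, all 3 with the exon 1 siRNA.

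The measurements came from HB2, a line of immortalized epithelial cells of the human breast, 48 h after transfection with 50 nM siRNA. In 3 groups the siRNA was aimed at the long noncoding RNA gene GNG12-AS1, at exon 1, at exon 7 and at exon 9, and the last group received a control siRNA. Every group had 6 biological replicates on Illumina bead arrays, 24 arrays in all, and all cells met the same transfection reagent, DharmaFECT 3. Each exon was targeted by a single siRNA, so the exon and the sequence of its siRNA cannot be told apart. The sample titles tie each replicate number to 1 experiment that holds an array of every group, and the fit therefore carries the replicate number as a block.

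No probe was named GNG12-AS1 (0 in the annotation), so the target's own level is not given here. Of 16 mammary epithelial markers on the array, 14 lay above background on all 24 arrays, and KRT14, a basal keratin, on none. Of 9 fibroblast markers 2 lay above background on all 24 arrays, 5 on some and 2, the receptors PDGFRA and PDGFRB, on none. Of 8 immune markers 2 lay above it on all 24, 2 on some and 4 on none, PTPRC, the pan-leukocyte marker, among them. None of 7 endothelial or 5 adipocyte markers lay above it on all 24. The log2 of the summed intensity of the fibroblast markers ran from 11.8 to 12.25 with exon 1, 11.35 to 11.61 with exon 7 and 11.54 to 11.77 with exon 9, against 11.66 to 11.94 with control. For the immune markers it ran from 10.84 to 11.23 with exon 1, 11.08 to 11.78 with exon 7 and 10.87 to 11.36 with exon 9, against 11.3 to 11.8 with control. CD14, an immune marker that other cells also express, fell by 0.80, 0.30 and 0.72 with exons 1, 7 and 9 (adjusted p = 2.06e-06, 0.04 and 1.47e-05), and THY1, a fibroblast marker, fell by 0.38 with exon 7 (adjusted p = 0.00338). Without the replicate block the CD14 difference with exon 7 did not pass (adjusted p = 0.565). With exon 7 the 5 fibroblast markers tested ran from -0.38 to 0.22 and the 2 immune markers from -0.30 to 0.16. With exon 1 they ran from 0.03 to 0.53 and from -0.80 to -0.03. With exon 9 they ran from -0.21 to 0.32 and from -0.72 to -0.20. Of 14 epithelial markers tested, EGFR rose by 0.60 with exon 7 (adjusted p = 9.7e-05). The 14 ran from -0.20 to 0.60 there, at a median of -0.053. ELF3 fell by 0.41 with exon 1 (adjusted p = 0.00205), but not without the block (adjusted p = 0.449). The 14 ran from -0.41 to 0.23 with exon 1 (median 0.00054) and from -0.21 to 0.21 with exon 9 (median -0.14). The epithelial log2 sums ran from 15.99 to 16.24 with exon 1 and 15.9 to 16.14 with exon 7. They ran from 15.92 to 16.14 with exon 9, against 16.02 to 16.27 with control. The part of these markers in the results was not tested. The array columns stood in 2 sets of 12 in the deposited table, each with 3 arrays of every group. What the sets stand for is not given in the sources used here. The second principal component, 13.4% of the variance of kept probes, had a squared correlation of 0.637 with the set.

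Before S phase, the origin recognition complex with CDC6 and CDT1 loads the MCM helicase onto DNA. CDC45 and the GINS complex then activate the helicase, RFC loads the PCNA clamp, and the polymerases copy the strands. E2F transcription factors, held back by RB proteins until cyclin-dependent kinases release them, switch on most of these genes as a cycling cell nears S phase. A set of such genes therefore usually varies together with the share of cycling cells in a culture.

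Promoter sequences of 37 of the 43 genes were found in RefSeq (GRCh38.p14), as windows from 250 bases before to 50 bases after the gene's first base. Each window was searched on both strands for 4 spellings of the E2F motif, TTCCCGC or TTCGCGC or TTGGCGC or TTGCCGC. A match stood in 28 of the 37 windows (75.7%), against 3564 of 27305 promoters of all genes (13.1%). E2F targets were among the genes chosen, so a higher share follows in part from the choice. There were 47 matches, of which 27 began within the 100 bases before the start, and 13 windows held 2 or more. The CCAAT box, a promoter element spelled CCAAT, stood in 21 of the 37 (56.8%), against 35.7% of all promoters. These are letter matches, and they are given as a description of the genes and not as binding sites.

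**Figure D1:**
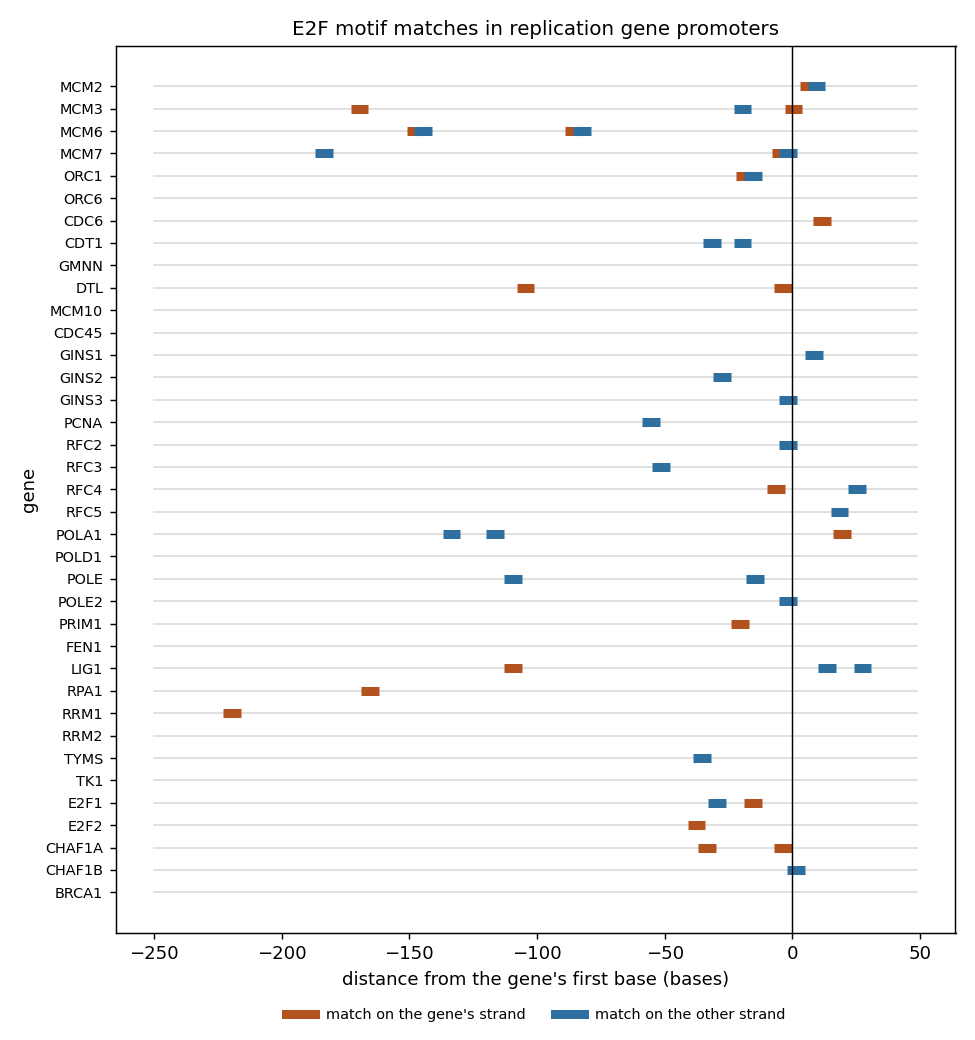
Positions of E2F motif matches in the promoters of 37 replication genes. The x axis is the distance in bases from the gene's first base, which is 0, the y axis the gene, and each bar a match on the gene's own strand (orange) or the other strand (blue). Of 47 matches, 27 begin within the 100 bases before the start, and 9 genes such as RRM2, TK1 and BRCA1 have none.

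The promoters of the genes that the results turn on are shown from 170 bases before the start to 30 bases at and after it, 5′ to 3′ on the gene's strand, with matches in capitals. E2F2 (chr1:23531204-23531403, minus strand) holds 1 match, GINS3 (chr16:58392301-58392500, plus strand) 1, RFC4 (chr3:186806453-186806652, minus strand) 2 and MCM6 (chr2:135876414-135876613, minus strand) 4, which lie as overlapping pairs on opposite strands. TYMS (chr18:657483-657682, plus strand) and RPA1 (chr17:1829835-1830034, plus strand) hold 1 each.

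E2F2: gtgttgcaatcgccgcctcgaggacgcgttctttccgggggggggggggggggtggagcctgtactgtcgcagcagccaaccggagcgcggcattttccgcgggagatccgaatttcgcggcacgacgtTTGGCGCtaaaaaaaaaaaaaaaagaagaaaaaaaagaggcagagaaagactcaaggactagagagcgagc

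GINS3: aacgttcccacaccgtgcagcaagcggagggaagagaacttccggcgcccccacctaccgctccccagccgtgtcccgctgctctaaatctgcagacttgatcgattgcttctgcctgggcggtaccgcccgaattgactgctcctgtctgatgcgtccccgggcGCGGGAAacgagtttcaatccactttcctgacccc

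RFC4: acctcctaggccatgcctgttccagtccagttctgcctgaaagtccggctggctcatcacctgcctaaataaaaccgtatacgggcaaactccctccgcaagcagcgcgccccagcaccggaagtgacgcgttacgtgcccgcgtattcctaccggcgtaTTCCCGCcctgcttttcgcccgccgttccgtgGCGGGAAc

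MCM6: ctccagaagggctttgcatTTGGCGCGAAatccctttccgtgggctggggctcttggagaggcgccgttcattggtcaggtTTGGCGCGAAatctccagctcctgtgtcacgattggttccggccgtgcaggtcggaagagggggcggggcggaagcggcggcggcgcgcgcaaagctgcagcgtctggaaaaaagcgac

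TYMS: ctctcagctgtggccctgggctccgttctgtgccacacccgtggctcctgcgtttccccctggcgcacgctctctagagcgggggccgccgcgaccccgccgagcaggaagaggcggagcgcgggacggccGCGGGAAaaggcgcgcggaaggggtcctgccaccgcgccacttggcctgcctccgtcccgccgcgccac

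RPA1: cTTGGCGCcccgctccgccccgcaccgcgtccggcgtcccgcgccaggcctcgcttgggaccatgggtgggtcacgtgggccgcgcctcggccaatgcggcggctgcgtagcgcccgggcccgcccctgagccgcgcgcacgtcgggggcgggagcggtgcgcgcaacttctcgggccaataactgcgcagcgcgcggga

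With the first base of the gene counted as 0, the match of E2F2 begins at -41, those of RFC4 at -10 and 22, that of TYMS at -39 and that of RPA1 at -169. MCM6 has matches that begin at -151, -148, -89 and -86.

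Few replication genes changed against the control siRNA, and all that passed the test rose. With the exon 1 siRNA 3 of 42 genes rose and 0 fell: RFC4, a clamp loader subunit, RPA1, the large subunit of the single-strand binding protein, and TYMS, thymidylate synthase. The exon 7 siRNA raised 2 and lowered 0: E2F2, an activator of S phase genes, and TYMS. The exon 9 siRNA raised 3 and lowered 0: E2F2, GINS3, a subunit of the GINS complex, and RFC4. Changes were small, from 1.12-fold for TYMS with exon 7 to 1.45-fold for E2F2 with exon 9. In these bulk samples a different number of cells of a kind and a different amount of RNA per cell cannot be told apart.

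Those counts come from limma with Benjamini-Hochberg adjustment at 0.05 over all 19372 kept probes, on a gene's brightest kept probe. They are 7.14% of the 42 genes for exon 1, where 12.7% of all kept probes were called, 4.76% for exon 7, where 3.02% were called, and 7.14% for exon 9, where 5.77% were called. For rises alone the shares of all kept probes were 6.57%, 1.62% and 2.83% with exons 1, 7 and 9, and for falls 6.13%, 1.4% and 2.94%. In either direction, the share was below that of the whole array for exon 1. It was within 2 percentage points of that of the whole array for exons 7 and 9. All the called genes rose, and for rises alone their share was above that of all kept probes with every siRNA. These shares rest on 3, 2 and 3 genes. The median difference over the 42 genes was -0.0045 on the log2 scale for exon 1, 0.071 for exon 7 and 0.054 for exon 9, beside 0.0019, -0.0020 and 0.0011 over all kept probes. Without the replicate block the counts were 0 for exon 1, 1 for exon 7 and 3 for exon 9, where 6.97%, 1.18% and 2.34% of all kept probes were called.

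The precision was fine enough to bound most changes. The 95% interval lay within 1.25-fold of no change for 33 of the 42 genes with exon 1, 34 with exon 7 and 31 with exon 9. It lay within 1.5-fold for 42, 41 and 40 genes in the same order of siRNAs.

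**Figure D2:**
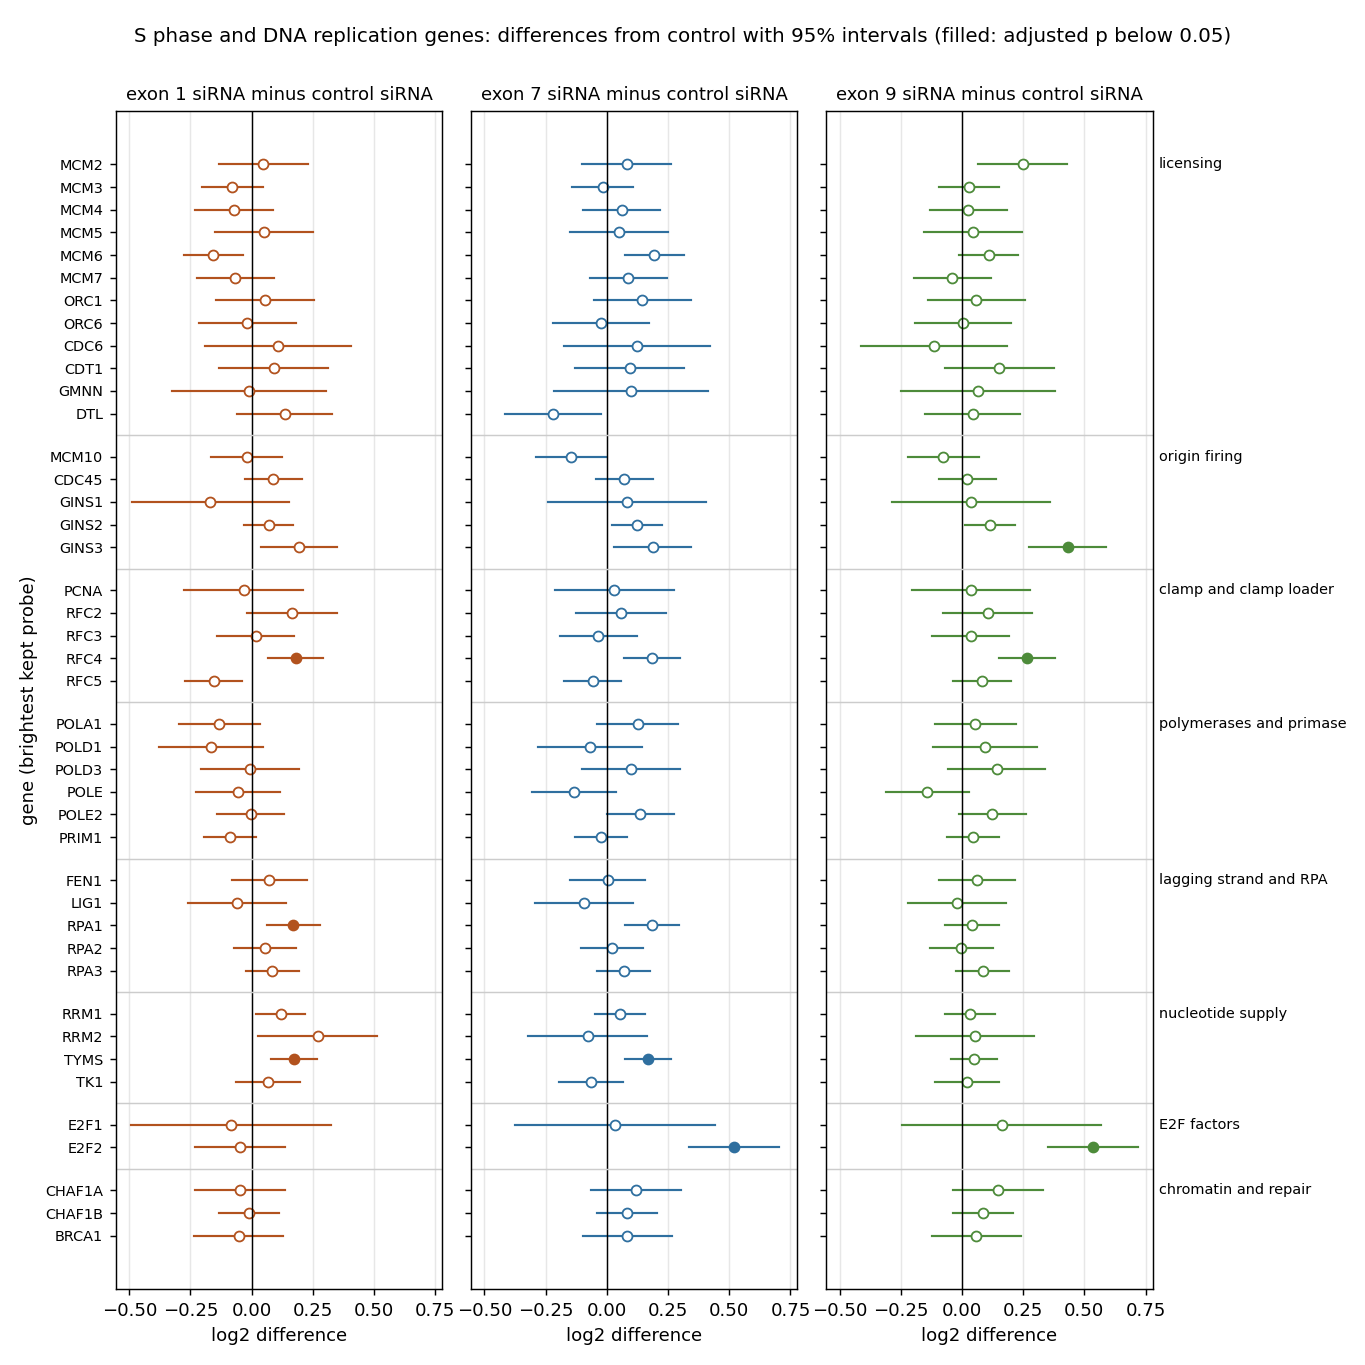
Log2 difference from the control siRNA (x axis) of the 42 replication genes (y axis, grouped by role) for the exon 1, exon 7 and exon 9 siRNAs, from left to right. Points are fitted differences, bars 95% intervals (n = 6 arrays per group), and filled points have an adjusted p below 0.05. The filled points are RFC4, RPA1 and TYMS for exon 1, TYMS and E2F2 for exon 7, and GINS3, RFC4 and E2F2 for exon 9.

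Among the 12 licensing genes 0 passed the test against control with any siRNA. Their differences ran from -0.16 to 0.13 with exon 1, from -0.22 to 0.19 with exon 7 and from -0.11 to 0.25 with exon 9. MCM6, a subunit of the MCM helicase, measured a lowest, median and highest log2 intensity of 11.27, 11.63 and 11.69 with exon 1, 11.76, 11.94 and 12.05 with exon 7, and 11.67, 11.85 and 11.98 with exon 9, against 11.61, 11.69 and 11.86 with control. The exon 1 and exon 7 arrays did not overlap, and each of these groups overlapped the control. Against control the differences of MCM6 were -0.16 ± 0.058 (SE, adjusted p = 0.0848) with exon 1, 0.19 ± 0.058 (adjusted p = 0.0812) with exon 7 and 0.11 ± 0.058 (adjusted p = 0.339) with exon 9. It lay below its control in 6 of 6 pairs with exon 1 and above it in 6 of 6 with exon 7.

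MCM2, another helicase subunit, measured 11.41, 11.74 and 11.89 with exon 9, against 11.11, 11.47 and 11.73 with control. Its difference of 0.25 ± 0.086 had an adjusted p of 0.108 and was positive in 4 of 6 pairs. With exon 1 (0.05) and exon 7 (0.08) MCM2 stood nearer to control. DTL, the substrate receptor of the ubiquitin ligase that removes CDT1 in S phase, measured 9.36, 9.51 and 9.95 with exon 1, 8.91, 9.20 and 9.46 with exon 7, and 9.32, 9.47 and 9.76 with exon 9, against 9.07, 9.48 and 9.68 with control. The difference of DTL from control with exon 7, -0.22 ± 0.093 (adjusted p = 0.261), was the lowest of the 42 genes on their brightest probes. A second probe of MCM10, an origin firing gene, gave -0.30 there (adjusted p = 0.272). The brightest MCM10 probe gave -0.15 (adjusted p = 0.331), below control in 6 of 6 pairs.

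Of the 5 origin firing genes, GINS3 alone passed, with exon 9. It measured 10.10, 10.17 and 10.35 with exon 1, 9.93, 10.21 and 10.38 with exon 7, and 10.33, 10.37 and 10.64 with exon 9, against 9.76, 10.03 and 10.14 with control. Every exon 9 array lay above every control array, while the other siRNA groups overlapped the control. The rise with exon 9 was 0.43 ± 0.074, or 1.35-fold, with an adjusted p of 0.00148, and it was 0.41 within the first column set and 0.45 within the second. With exon 1 the difference was 0.19 (adjusted p = 0.105) and with exon 7 0.19 (adjusted p = 0.222), positive in 6 of 6 pairs each.

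GINS2, of the same complex, was also above its control in 6 of 6 pairs with every siRNA, without passing the test. GINS1 was near the limit of detection, above background on 9 of 24 arrays. Its difference with exon 1, -0.17 ± 0.15 (adjusted p = 0.559), was the lowest of the 42 genes on their brightest probes.

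In the clamp and clamp loader group RFC4 passed with exon 1 and exon 9. It measured 11.91, 12.00 and 12.15 with exon 1, 11.85, 12.03 and 12.09 with exon 7, and 11.92, 12.09 and 12.26 with exon 9, against 11.70, 11.86 and 11.92 with control. All siRNA groups sat high, and each touched or overlapped the top of the control range. RFC4 rose by 0.18 ± 0.054 with exon 1 (adjusted p = 0.0349) and by 0.27 ± 0.054 with exon 9 (adjusted p = 0.00546), and its difference was 0.19 ± 0.054 with exon 7 (adjusted p = 0.075). It was above its control in 6 of 6 pairs with every siRNA. A second RFC4 probe gave 0.12, 0.26 and 0.26 for exons 1, 7 and 9, with adjusted p-values of 0.147, 0.00725 and 0.00409, so the exon 1 and exon 7 calls depended on the probe.

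The call of RFC4 with exon 1 was lost in 14 of 18 fits that left out 1 array or 1 replicate number (adjusted p up to 0.133), among them each of the 6 replicate numbers, and without the block (adjusted p = 0.123). With exon 9 it was kept in all 18 and lost with median scaling and in a fit of the exon 9 and control arrays alone. RFC5, another loader subunit, measured 10.90, 11.18 and 11.22 with exon 1, 11.07, 11.24 and 11.31 with exon 7, and 11.30, 11.35 and 11.45 with exon 9, against 11.09, 11.32 and 11.35 with control. Its difference with exon 1, -0.16 ± 0.056 (adjusted p = 0.078), was negative in 6 of 6 pairs but did not pass. PCNA, the sliding clamp itself, differed by -0.03, 0.03 and 0.04 with exons 1, 7 and 9 on its brightest probe. Its other kept probe gave 0.19, 0.06 and 0.22, and neither probe passed with any siRNA.

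No polymerase or primase gene (0 of 6) passed against control. POLE, the catalytic subunit of the leading strand polymerase, had the lowest value on a brightest probe with exon 9, -0.14 ± 0.082 (adjusted p = 0.402). POLA1, the catalytic subunit of the polymerase that works with primase, measured 8.45, 8.66 and 8.82 with exon 1, 8.70, 8.93 and 9.04 with exon 7, and 8.69, 8.80 and 8.98 with exon 9, against 8.56, 8.80 and 8.85 with control. All of these groups overlapped.

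Of the 5 lagging strand and RPA genes, RPA1 passed with exon 1 and none passed with exon 7 or exon 9. RPA1 measured 11.86, 11.97 and 12.06 with exon 1, 11.78, 11.99 and 12.15 with exon 7, and 11.78, 11.83 and 11.88 with exon 9, against 11.68, 11.77 and 11.96 with control, and all groups overlapped the control. The rise with exon 1 was 0.17 ± 0.052 (adjusted p = 0.0381). With exon 7 the difference was as large, 0.18 ± 0.052, and missed the threshold (adjusted p = 0.0658). It was 0.04 with exon 9. Other RPA1 probes gave 0.22 (adjusted p = 0.122) and 0.25 (adjusted p = 0.0441) with exon 1, 0.21 and 0.21 with exon 7, and 0.16 and 0.17 with exon 9, of which only that of 0.25 passed. The call on the brightest probe was lost in 14 of 18 fits with arrays or numbers left out (adjusted p up to 0.178), each replicate number among them, and without the block (adjusted p = 0.155). RPA2 and RPA3, the smaller subunits, did not pass with any siRNA.

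Of the 4 nucleotide supply genes TYMS, which makes thymidylate, passed with exon 1 and exon 7. It measured 12.19, 12.41 and 12.47 with exon 1, 12.15, 12.40 and 12.55 with exon 7, and 12.09, 12.24 and 12.41 with exon 9, against 12.05, 12.16 and 12.36 with control. The ranges overlapped widely, since replicate number carried 68.1% of the spread of TYMS, siRNA 27.4% and the rest 4.54%. Inside a replicate number the order was steady: the siRNA array was above its control in 6 of 6 pairs with every siRNA, by 0.11 to 0.25 with exon 1 and 0.065 to 0.25 with exon 7, and by 0.015 to 0.09 with exon 9.

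The rise of TYMS was 0.17 ± 0.045 with exon 1 (adjusted p = 0.0146) and 0.17 ± 0.045 with exon 7 (adjusted p = 0.0479), and the difference was 0.05 with exon 9 (adjusted p = 0.671). Without the block neither passed (adjusted p = 0.261 and 0.521). The exon 1 call was lost without replicate number 1, 5 or 6 (adjusted p up to 0.0784), and the exon 7 call in all 18 fits with arrays or numbers left out (adjusted p up to 0.195). RRM2, the regulated subunit of ribonucleotide reductase, had the largest value of any replication gene with exon 1, 0.27 ± 0.11, positive in 6 of 6 pairs, and did not pass (adjusted p = 0.146).

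Among the E2F factors E2F2 had the largest changes of all 42 genes. It measured 8.21, 8.51 and 8.73 with exon 1, 8.93, 9.10 and 9.41 with exon 7, and 8.86, 9.17 and 9.43 with exon 9, against 8.40, 8.59 and 8.97 with control. All exon 7 and exon 9 arrays but the lowest of each lay above all control arrays, one control array of 8.97 being higher than the rest, and the exon 1 arrays lay within or below the control range. The rise was 0.52 ± 0.088 with exon 7 (1.43-fold, adjusted p = 0.00219) and 0.53 ± 0.088 with exon 9 (1.45-fold, adjusted p = 0.000951), positive in 6 of 6 pairs each. With exon 1 the difference was -0.05 ± 0.088 (95% interval from -0.23 to 0.14).

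Within the first column set E2F2 differed from control by 0.38 with exon 7 and 0.55 with exon 9, and within the second by 0.65 and 0.51. Both calls held without the block (adjusted p = 0.0197 and 0.00913) and in all fits that left out an array or a replicate number. E2F1, a related activator, was not precise enough to set beside it: its differences were -0.09, 0.03 and 0.16 for exons 1, 7 and 9, with intervals the widest of the 42 genes. E2F8, left out by the filter, was not tested. Its mean log2 intensity was 6.33 with exon 1, against 5.99, 5.84 and 5.82 with exon 7, exon 9 and control. Those values lie near background. CHAF1A and CHAF1B, which place histones behind the fork, and BRCA1, a repair factor, did not pass with any siRNA.

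**Figure D3:**
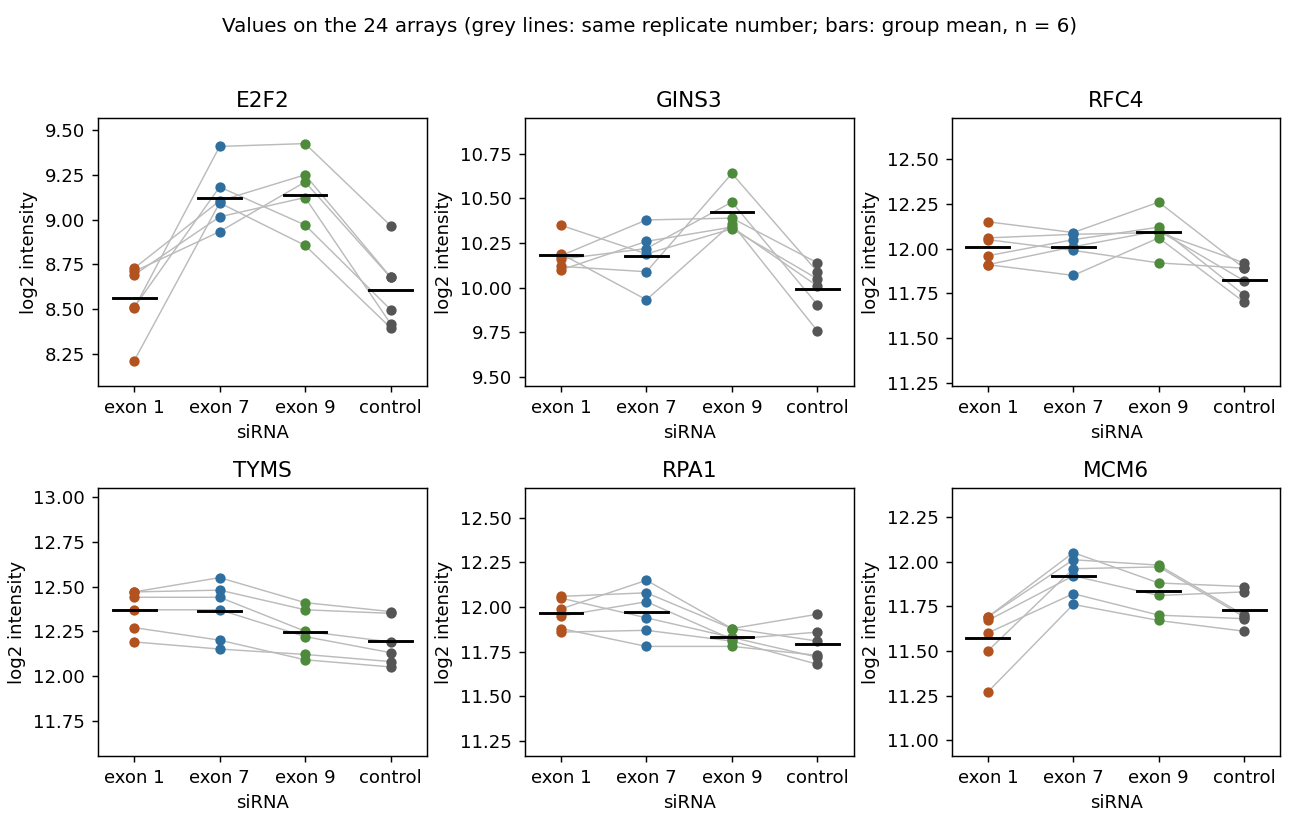
Log2 intensity (y axis) of 6 replication genes on the 24 arrays, by siRNA group (x axis; exon 1, exon 7, exon 9, control). Points are arrays, black bars group means (n = 6), and grey lines join arrays of the same replicate number; every panel spans the same log2 range. E2F2 is high with exons 7 and 9, GINS3 with exon 9, and MCM6 is lower with exon 1 than with exon 7 on every array.

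The siRNAs were then set against each other, which asks whether these genes differed between the siRNA groups. Target exon and siRNA sequence cannot be told apart in these comparisons either. Exon 1 and exon 7 differed in 4 of 42 genes, where 14% of all kept probes were called, and in 3 without the block, where 7.94% were. Relative to exon 7, exon 1 gave lower MCM6 (-0.35 ± 0.058, adjusted p = 0.000445), E2F2 (-0.57 ± 0.088, adjusted p = 0.000262) and POLA1 (-0.26 ± 0.079, adjusted p = 0.0335), and higher DTL (0.36 ± 0.093, adjusted p = 0.0148). MCM6, E2F2 and POLA1 were lower with exon 1 in 6 of 6 pairs, and DTL was higher in 5 of 6. The MCM6 difference was -0.42 within the first column set and -0.28 within the second, and that of E2F2 was -0.55 and -0.58. The DTL call was lost without the block (adjusted p = 0.0552) and without replicate number 2, 3 or 5, and that of POLA1 in 10 of 18 fits with arrays or numbers left out (adjusted p up to 0.157).

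Exon 1 and exon 9 also differed in 4 genes, where 11.3% of all kept probes were called, and in all 4 exon 1 was lower, as in 5.35% of all kept probes. The differences were -0.58 ± 0.088 for E2F2 (adjusted p = 0.000282), -0.27 ± 0.058 for MCM6 (adjusted p = 0.00477), -0.24 ± 0.056 for RFC5 (adjusted p = 0.00889) and -0.24 ± 0.074 for GINS3 (adjusted p = 0.0441). Without the block 2 of the 4 genes were called, where 5.53% of all kept probes were, and MCM6 (adjusted p = 0.0546) and GINS3 (adjusted p = 0.0885) were not. GINS3 was lower in 5 of 6 pairs and lost its call in 13 of the 18 fits with arrays or numbers left out (adjusted p up to 0.189), while RFC5 lost its own without replicate number 1 or 2 (adjusted p up to 0.0647).

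Exon 7 and exon 9 differed in 0 of 42 genes by limma, where 5.97% of all kept probes were called, and 5 genes had an unadjusted p below 0.05, beside 3561 of all 19372 kept probes. Without the block the count was also 0, where 2.68% of all kept probes were called. The closest to the threshold was GINS3, lower with exon 7 at a difference of -0.24 ± 0.074 (adjusted p = 0.0614). E2F2 differed between exon 7 and exon 9 by -0.02, with a 95% interval from -0.20 to 0.17, and by -0.17 in one column set and 0.14 in the other. The comparisons with control share the same 6 control arrays, and those between siRNAs share siRNA arrays. The comparisons are therefore not independent of each other.

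Other genes of the same pathways were counted beside the 42. They came in 4 lists, a set of other replication genes, the E2F and RB family with S phase cyclins, E2F targets of chromatin and repair, and mitotic genes. Of all kept probes 12.7% were called with exon 1 (6.13% lower), 3.02% with exon 7 and 5.77% with exon 9 (2.94% lower), and the counts below stand beside these shares. Of 35 other replication genes 3 fell with exon 1, 0 passed with exon 7 and 2 fell with exon 9. DUT, which keeps uracil out of DNA, fell by 0.49 with exon 1 (adjusted p = 0.00284). Other DUT probes gave -0.41 (adjusted p = 0.00632) and -0.17 (adjusted p = 0.541) with exon 1. GINS4, the fourth GINS subunit, fell by 0.42 with exon 1 (adjusted p = 0.00267). DUT differed by 0.14 with exon 9 (adjusted p = 0.543), though another of its probes gave 0.59 there (adjusted p = 0.0257). TIMELESS, a fork protection factor, fell by 0.23 with exon 1 (adjusted p = 0.0259), and POLD4, a small polymerase subunit, fell by 0.44 with exon 9 (adjusted p = 0.0255). Without the block 1 gene was called with exon 1 and 0 with exon 9. With 1 array or replicate number left out the exon 1 count ran from 2 to 3 and the exon 9 count from 0 to 3. The call of TIMELESS was lost in 7 of these 18 fits (adjusted p up to 0.147) and that of POLD4 in 12 (adjusted p up to 0.14).

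In the E2F and RB family with S phase cyclins, 3 of 18 rose and 1 fell with exon 1, 1 rose with exon 7, and 3 rose and 1 fell with exon 9. Without the block 3, 0 and 4 were called with exons 1, 7 and 9. CCNE1, the cyclin that opens S phase, fell by 0.62 ± 0.10 with exon 1 (adjusted p = 0.000617) and rose by 0.70 ± 0.10 with exon 9 (adjusted p = 0.000426), with 0.33 ± 0.10 for exon 7 (adjusted p = 0.101). Another CCNE1 probe gave 0.04, 0.07 and 0.16 for exons 1, 7 and 9, none past the threshold, so the change was read on 1 probe only. CDKN1C, an inhibitor of cyclin-dependent kinases, rose by 0.65 ± 0.15 with exon 1 (adjusted p = 0.00605) and by 1.01 ± 0.15 with exon 9 (adjusted p = 0.000293). CDKN1A, a p53-induced inhibitor, rose by 0.59 ± 0.091 with exon 1 (adjusted p = 0.000246) and by 0.49 ± 0.091 with exon 7 (adjusted p = 0.00449). Both CDKN1A calls were lost without the block (adjusted p = 0.0628 and 0.302), and the exon 7 difference was 0.14 in one column set and 0.85 in the other. CCNA2, the cyclin of S phase and G2, fell by 0.35 ± 0.057 with exon 9 (adjusted p = 0.000905).

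Of 19 E2F targets of chromatin and repair 1 fell with exon 1, 0 passed with exon 7, and 1 rose and 1 fell with exon 9, against shares of 12.7%, 3.02% and 5.77% of all kept probes called in either direction. NASP, a histone chaperone, fell by 0.36 ± 0.066 with exon 1 (adjusted p = 0.00123) and rose by 0.49 ± 0.066 with exon 9 (adjusted p = 0.000126). EXO1, an exonuclease of repair, fell by 0.25 ± 0.071 with exon 9 (adjusted p = 0.0424), and without the block it did not pass (adjusted p = 0.441). Its call was lost in 15 of 18 fits with 1 array or number left out (-0.31 to -0.16, adjusted p up to 0.155), and it ran from -0.46 to -0.05 under the other settings. Other EXO1 probes gave -0.28 (adjusted p = 0.0208) and -0.08 (adjusted p = 0.849) with exon 9.

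Of 34 mitotic genes 7 fell with exon 9 and 0 rose, at a list median of -0.13, where 2.94% of all kept probes were called lower. Without the block 5 were called, with median scaling 3, and in a fit of the exon 9 and control arrays alone 1. With 1 array or replicate number left out the count ran from 3 to 7, and it was 3 without replicate 2, 4 or 5. The exon 1 siRNA lowered 1 of them, AURKA, a spindle kinase (-0.62 ± 0.075, adjusted p = 2.18e-05), and the exon 7 siRNA raised 1, INCENP, a subunit of the Aurora B complex (0.40 ± 0.07, adjusted p = 0.00285). Another INCENP probe gave 0.14 (adjusted p = 0.785) with exon 7, and the call was lost with the mean of its probes, with the exon 7 and control arrays alone and within each column set. With exon 9, PTTG1, the securin, fell by 0.38 (adjusted p = 0.00215), KIF20A, a kinesin of cytokinesis, by 0.37 (adjusted p = 0.00179) and AURKA by 0.31 (adjusted p = 0.0192). The exon 9 call of AURKA was lost in 8 of the 18 fits with an array or number left out (adjusted p up to 0.113). The 42 replication genes had a median of 0.054 with the same siRNA. The difference between these lists was not tested.

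Over the 42 genes, replicate number carried a median of 29.5% of the spread between arrays, siRNA 17.5% and the rest 45.5%, beside 26.6%, 17.4% and 47.6% over all kept probes. Replicate number has more levels than siRNA, which by itself gives it more of the spread, so each share is read only against its own value over all kept probes. RFC3, a clamp loader subunit, had the largest share for replicate number, 71.5%, and E2F2 the largest for siRNA, 70.2%, with 63.5% for GINS3.

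The column set marked 15 of the 42 genes (35.7%), where 18.2% of all kept probes were called for it. Of these 12 were higher in the first set, among them CDT1 (0.24, adjusted p = 0.00235), the licensing factor, and RRM2 (0.24, adjusted p = 0.0107). GMNN, the inhibitor of CDT1, PCNA and DTL were lower in the first set, at differences of -0.37 (adjusted p = 0.00031), -0.30 (adjusted p = 5.04e-05) and -0.21 (adjusted p = 0.00247) in that order.

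In the 6 pairs with the siRNA array in the first set and its control in the second, the median difference of the 42 genes was 0.072 to 0.15. It was -0.071 to 0.021 in the 6 pairs the other way round, and 0.00072 to 0.099 in the 6 pairs within a set. Each siRNA had 2 pairs of every kind, so the set was balanced over the 3 comparisons with control. The effect of an siRNA differed between sets for 0 of the 42 genes in any comparison with control by limma, and for 0 of all kept probes, with 5, 1 and 3 genes at an unadjusted p below 0.05 for exons 1, 7 and 9, beside 5.65%, 4.26% and 4.74% of all kept probes.

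**Figure D4:**
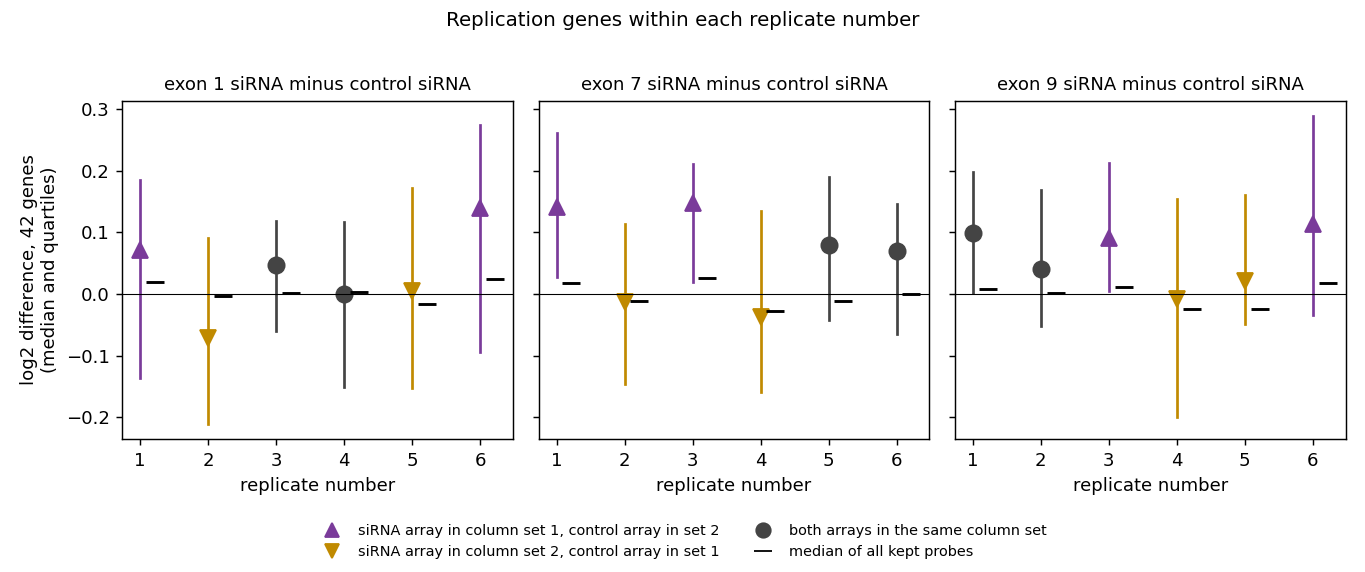
Log2 difference between the siRNA array and the control array of the same replicate number (x axis), as median and quartiles over the 42 replication genes (y axis), for exon 1, exon 7 and exon 9. Symbols give the column sets of the 2 arrays and black dashes the median of all kept probes. Pairs with the siRNA array in the first set and its control in the second lie at 0.072 to 0.15, those the other way round at -0.071 to 0.021, and those within a set at 0.00072 to 0.099.

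Counting genes that moved the same way in all 6 pairs, 6 were higher and 2 lower with exon 1, where 8.8% and 7.92% of all kept probes were. With exon 7, 8 were higher and 2 lower, where 5.0% and 4.4% were, and with exon 9, 6 were higher and 1 lower, where 5.83% and 5.92% were. The higher genes with exon 1 were GINS2, GINS3, RFC4, RPA1, RRM2 and TYMS, and the lower ones MCM6 and RFC5. The 3 comparisons share their control arrays, so these counts are not independent of each other.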

How the data were processed

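Total RNA of 24 HB2 samples was read on Illumina bead arrays. The deposited table of non-normalized values was read as log2 intensities per probe and array, and its column headers name the arrays. The deposited series matrix holds the authors' log2 values after a normalization that gives all arrays the same distribution. Which software made either table is not stated in the sources at hand.

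The non-normalized log2 values were returned to the linear scale, corrected with limma's neqc (normexp, offset 16, with 437 olfactory receptor probes in place of negative controls), quantile normalized and put back on log2 (limma 3.58.1, R 4.3.3). The filter asked for a p below 0.05 against those surrogates on 6 or more arrays and kept 19372 probes. On each array 34.2% to 39.5% of probes lay above background, and the number of arrays limits the precision.

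A mean per group plus the replicate number as a block was fitted over all 24 arrays with lmFit and eBayes, two-sided, with Benjamini-Hochberg adjustment at 0.05 over kept probes. The block follows the titles, which name the numbers as experiments. Deviations of arrays with the same number correlated between -0.062 and 0.51 over 36 pairs (median 0.13, 23 above 0.1). In 17 of the 36 the best match of an array in the other group was its own number. Pairs within a column set ran from 0.17 to 0.51 and pairs across sets from -0.062 to 0.31. These correlations mix replicate number with column set, so they cannot show the pairing by themselves.

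Values on the arrays and full statistics were given for genes passing against control, filled to 8 by adjusted p (which added RFC5, MCM6 and MCM2), and for DTL and POLA1, which passed between siRNAs; also for the highest and lowest difference per siRNA and up to 4 genes per other list. The members and lists were chosen with earlier results of these data known. The fit was tested on simulated data. Alternatives are given with their effect in the closing section.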

Additional observations from a re-analysis of the deposited data

Results flagged for a closer look

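Of 40 groups of 6 arrays checked with Dixon's test, 2 held an array that stood apart, and chance gives about 5%. GINS3 measured 10.35 on the exon 1 array of replicate 4, above a nearest value of 10.19 and a lowest of 10.10 in that group (ratio 0.649). POLA1 measured 8.556 on the control array of replicate 6, below a nearest value of 8.758 and a highest of 8.85 (ratio 0.687). The difference of GINS3 between exon 1 and exon 9 kept its sign and its call without that array, and POLA1 passed no comparison with control.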

How the results depend on the processing

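The alternatives were run for passing differences of replication genes on their brightest probes. They were also run for the genes named from the 4 other lists, against control. None of these changed sign (0 reversed). Of the gene and setting pairs, 915 kept their call and 272 lost it. Cell type markers, second probes and differences between column sets are not in those counts. Differences that did not pass are also outside them, and some changed sign between column sets, as E2F2 with exon 1 did (-0.16 and 0.07). The main counts of called replication genes were 3 for exon 1, 2 for exon 7 and 3 for exon 9 over control. They were 4, 4 and 0 for exon 1 over 7, exon 1 over 9 and exon 7 over 9. The next ranges cover all alternatives but those with 1 array or number left out. Exon 1 ran from 0 to 5, exon 7 from 0 to 6 and exon 9 from 0 to 4. Exon 1 over 7 gave 0 to 6, exon 1 over 9 gave 0 to 7 and exon 7 over 9 gave 0 to 2. Counts within 1.5-fold of the main ones are not named by setting below. Without the replicate block the counts were 0 for exon 1, 1 for exon 7 and 2 for exon 1 over 9. With the number as a random effect (consensus correlation 0.173) they were 0 for exon 1 and 1 for exon 7. Median scaling gave 0 for exon 1, 1 for exon 7 and 1 for exon 1 over 9, and moved the share of higher calls over all kept probes with exon 7 to 37.4%, against 53.5%, in exon 1 over 7 to 74.3%, against 52.4%, and in exon 7 over 9 to 29.9%, against 52.2%. No detection filter gave 1 for exon 1 and 1 for exon 7; the stricter filter gave 5 for exon 1, 5 for exon 7 and 1 for exon 7 over 9. The brightest probe per gene gave 5 for exon 7 and 1 for exon 7 over 9, and the mean of probes, the authors' values and no background correction 1 each for exon 7 over 9. Arrays of the compared groups alone gave 0 for exon 1, 1 for exon 7, 2 for exon 1 over 7 and 1 for exon 1 over 9. Each column set alone, with 3 arrays a group, gave 0 in every comparison. The replicate block with the column set block, chosen after seeing the data, gave 5 for exon 1, 6 for exon 7, 7 for exon 1 over 9 and 2 for exon 7 over 9. With 1 array or number left out the counts ran from 0 to 3 for exon 1, 1 to 2 for exon 7, 3 to 4 for exon 9, 2 to 5 for exon 1 over 7, 2 to 5 for exon 1 over 9 and 0 to 1 for exon 7 over 9. The rises of E2F2 with exons 7 and 9 and of GINS3 with exon 9 kept their calls under all but the single column sets. The filters and probe rules also change how many probes share the adjustment. The cause of these shifts was not tested.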
